A study of Drosophila melanogaster with 8 samples.

Results

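The strong promoters of the Drosophila melanogaster X chromosome were taken here as the 1682 tag clusters (TCs) of the X with a mean level of at least 5 TPM, out of 688364 TCs in the whole series. A TC is a group of neighbouring RNA 5′ ends on 1 strand, found by CAGE, an assay that captures capped RNAs and sequences their first bases, and TPM is the tag count scaled to a library total of 1000000 tags. To form TCs, positions holding 2 or more tags in any library were joined when at most 20 bp apart on the same strand, then positions with less than 0.1 of the tags of the summit (the position with the most tags) were removed and the remainder was joined once more. Members lie at or below position 21900000 of the X on genome build dm3, 833 on the plus and 849 on the minus strand. Members were chosen by their mean level over all 8 libraries, so their levels are a description, and no gene annotation entered the choice: the word promoter rests on the CAGE level alone.

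The cells were S2, a line of male embryonic origin with features of phagocytic blood cells. Of the 8 libraries, 4 are labelled exosome knockdown (a mixture of double-stranded RNAs against Rrp6 and Dis3, the 2 nucleases of the exosome) and 4 are labelled control (double-stranded RNA against GFP, a jellyfish protein the cells lack). Every culture received 40 µg of double-stranded RNA, was treated again 2 days later and was harvested on day 4 after the first treatment. The labels do not say whether the 4 libraries of a group came from separate cultures, while the study's text speaks of biological replicates without describing how they were made, so p-values measure the spread between these libraries. The labels go against other sources: the names of the deposited files and the per-library values in the study's supplementary table give the groups the other way round. Each of the 8 libraries matched 1 column of that table, in which 100% of the low values came out as whole tags of that library (within 0.02 tags) and at most 27.1% did for the next best library. The 4 labelled exosome knockdown matched its GFP columns and the 4 labelled control its knockdown columns. Groups are therefore written as labelled throughout, and every direction below is that of the libraries labelled exosome knockdown relative to those labelled control and turns round if the labels are swapped. The start sites of Rrp6 and Dis3, which would check the labels, were not analysed here. Libraries were barcoded and sequenced in pools of 4. Which pool held which library is not given in the sources used here. Whether pool and group coincide is thus not known, and pool was not adjusted for.

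A promoter sets where RNA polymerase II starts and how often. Some promoters start at a single dominant base and others over a dispersed stretch, and many also start a second RNA in the opposite direction, upstream of the first. The exosome degrades RNA from its 3′ end and is known for removing short RNAs of the upstream antisense kind soon after they are made. On the single X of male flies, the MSL complex raises transcription per gene copy, which is known as dosage compensation. Because CAGE counts capped 5′ ends of RNA that is present, a level reflects both how often a site starts and how long its RNA lasts, and these cannot be told apart.

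Library totals ranged from 33565925 to 43903483 tags in the libraries labelled exosome knockdown and from 36806292 to 46388382 in those labelled control. The 1682 members took 11.5% to 11.8% of all tags in the libraries labelled exosome knockdown and 10.1% to 11.1% in those labelled control. Of the tags on the X alone they took 76.1% to 77.6% in the libraries labelled exosome knockdown and 71.3% to 74.9% in those labelled control. Between libraries of a group, the squared correlation of log2 TPM across members was 0.853 to 0.960 with the label exosome knockdown and 0.837 to 0.963 with the label control. These correlations are across start sites, which are not independent replicates.

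Levels spanned 3 orders of magnitude. The median member had 21.6 TPM, with quartiles of 10.2 and 51.2 TPM. There were 408 members under 10 TPM, 1057 between 10 and 100 TPM, 207 between 100 and 1000 TPM and 10 above 1000 TPM. Use was concentrated: the 10 highest members held 22.1% of the summed member TPM, and 91 of the 1682 held 50% of it. Just inside the threshold lay the start sites at 19473586 (minus strand, 5.0004 TPM) and 5411334 (plus strand, 5.0047 TPM), and just outside it those at 14975316 and 8984571 (both plus strand, 4.9982 and 4.9977 TPM). At least 10 tags in each of the 8 libraries were found for 1660 members, and 1 member had a library at 0.

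Members were spread unevenly along the chromosome. Over the 21 complete stretches of 1 Mb, the count ran between 36 members in the fourth stretch and 138 in the twelfth, with a median of 74. The median distance between neighbouring members was 2.21 kb, while 55 gaps exceeded 100 kb. The longest gap, 370 kb, lay between 20529728 and 20899341. Many members were not alone: 534 (31.7%) had another member on the same strand within 250 bp, and chaining members at that distance gave 1383 groups with up to 6 members. Such neighbours may share a promoter and its RNA, so counts of members below are not counts of independent promoters.

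The start sites ranged from a single base to wide stretches. The median TC was 20 bp long (quartiles 4 and 44 bp, longest 218 bp), and 261 members (15.5%) consisted of 1 position. The summit held 41.7% of a member's tags in the median. The widest member, on the plus strand between 15600721 and 15600938, had 8.86, 8.73, 9.13 and 6.80 TPM in the libraries labelled exosome knockdown and 8.79, 11.2, 10.7 and 7.20 TPM in those labelled control. The groups overlapped, and its summit held only 4.82% of its tags. The second widest, on the minus strand between 6181838 and 6182029, averaged 70.9 ± 8.43 TPM in the libraries labelled exosome knockdown and 101.1 ± 22.1 TPM in those labelled control (SD, n = 4 each). Its groups overlapped too, and its fall by 0.49 on the log2 scale passed (edgeR, Benjamini-Hochberg adjusted p = 0.0414). Leaving out library 1, 2 or 4 labelled exosome knockdown, or library 1, 2 or 3 labelled control, lost the call (adjusted p of 0.0748 to 0.109).

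Members of up to 10 bp varied more between libraries than wider ones. Among the 1508 members with at least 100 tags in every library, the median coefficient of variation of TPM was 21.9% in the libraries labelled exosome knockdown and 22.7% in those labelled control for the 213 members of 1 position. For the 316 members over 50 bp it was 16.4% with the label exosome knockdown and 15.0% with the label control. In the same order it was 22.9% and 20.4% for the 327 members of 2 to 10 bp. The 652 members of 11 to 50 bp had 17.1% and 14.9%. The median TPM of the classes was 20.4 for 1 position, 24.3 for 2 to 10 bp, 27.1 for 11 to 50 bp and 24.8 for over 50 bp.

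The 8 most used start sites of the X were mostly narrow. Rank 1, the single base 1377321 on the minus strand, had 4055, 9367, 9872 and 8648 TPM in the libraries labelled exosome knockdown and 2869, 3053, 1448 and 3912 TPM in those labelled control. Every library labelled exosome knockdown was above every library labelled control, with a log2 fold change of 1.53 ± 0.38 (SE; edgeR, Benjamini-Hochberg adjusted p = 0.0071). Rank 2, the single base 5324589 on the plus strand, went the other way, with 1858, 2230, 1296 and 2640 TPM in the libraries labelled exosome knockdown and 6817, 10363, 5602 and 6100 TPM in those labelled control. The groups did not overlap, and the log2 fold change was -1.83 ± 0.31 (edgeR, Benjamini-Hochberg adjusted p = 0.00068). Both sites are thus led by different groups although their means over all libraries lie close together.

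Rank 3, the 2 bases 8972527 and 8972528 on the minus strand, had 1341, 1082, 1222 and 1507 TPM in the libraries labelled exosome knockdown and 3941, 4505, 4630 and 2758 TPM in those labelled control. All 4 libraries labelled exosome knockdown were below all 4 labelled control, and the log2 fold change was -1.60 ± 0.21 (edgeR, Benjamini-Hochberg adjusted p = 0.00015). Rank 4, at 5794904 on the plus strand and 6 bp long, had 4586, 3109, 4707 and 2709 TPM in the libraries labelled exosome knockdown and 1456, 1570, 525 and 1188 TPM in those labelled control. It was higher without overlap, by 1.68 ± 0.36 log2 units (edgeR, Benjamini-Hochberg adjusted p = 0.0028). Rank 5, the single base 17042292 on the minus strand, had 2142, 5050, 2340 and 2347 TPM in the libraries labelled exosome knockdown and 811, 1122, 1590 and 2489 TPM in those labelled control. Its groups overlapped and its log2 fold change of 1.05 ± 0.42 did not pass (edgeR, Benjamini-Hochberg adjusted p = 0.0569). It did with DESeq2 (adjusted p = 0.0206), with the replicate number as a block (0.0461), with every TC of 10 or more tags fitted (0.0042) and without control-labelled library 4 (0.0145).

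Ranks 6 to 8 had smaller fold changes. Rank 6, at 15033394 on the minus strand, averaged 2085 ± 559 TPM in the libraries labelled exosome knockdown and 1599 ± 814 TPM in those labelled control (SD, n = 4 each), with overlapping groups (log2 fold change 0.39 ± 0.38, edgeR Benjamini-Hochberg adjusted p = 0.416). Rank 7, at 18669268 on the plus strand, averaged 2027 ± 345 TPM with the label exosome knockdown and 1332 ± 154 TPM with the label control. Its rise of 0.63 ± 0.21 log2 units passed (edgeR, Benjamini-Hochberg adjusted p = 0.0252) although the groups overlapped, and leaving out library 1, 2 or 3 labelled exosome knockdown, or library 1 or 3 labelled control, lost the call (adjusted p of 0.0532 to 0.0776). Rank 8, at 5516567 on the minus strand and 22 bp long, had 1499, 1359, 1759 and 1768 TPM in the libraries labelled exosome knockdown and 1273, 1226, 1310 and 1140 TPM in those labelled control. The groups did not overlap, but the log2 fold change of 0.39 ± 0.15 did not pass (edgeR, Benjamini-Hochberg adjusted p = 0.0533) except with DESeq2 (adjusted p = 0.0115).

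**Figure D1:**
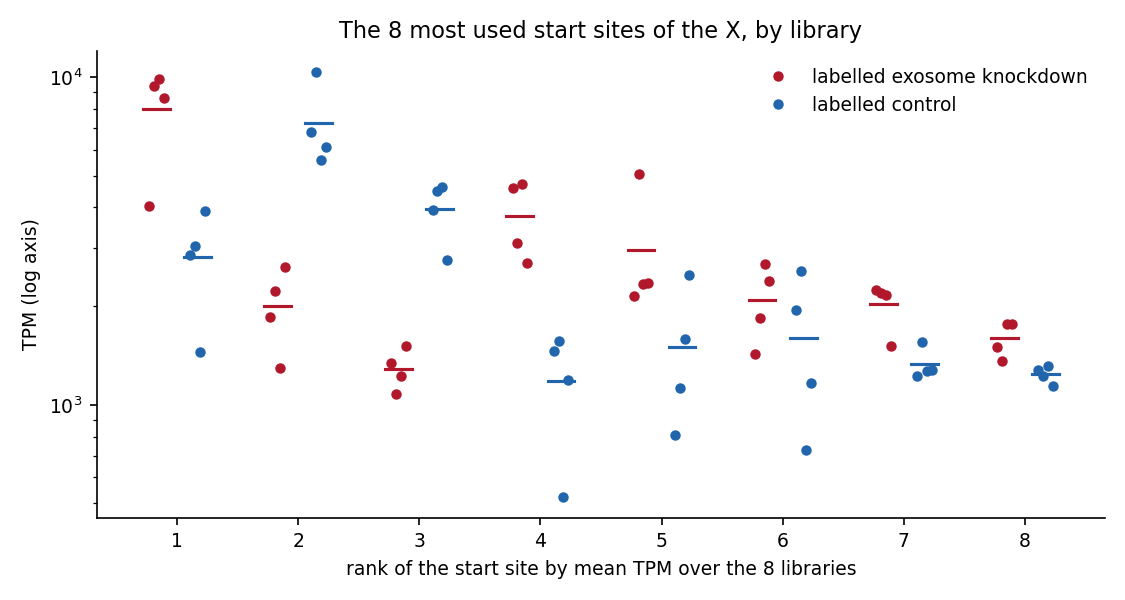
TPM (log axis) of the 8 most used start sites of the X, in order of their mean level. Points are libraries and bars are means of the 4 libraries labelled exosome knockdown (red, left) and the 4 labelled control (blue, right). Ranks 1 and 4 are higher and ranks 2 and 3 lower without overlap in the libraries labelled exosome knockdown. Rank 8 is also higher without overlap, but its difference did not pass in the main edgeR fit.

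Across all 1682 members, more start sites were called higher than lower in the libraries labelled exosome knockdown. edgeR with Benjamini-Hochberg adjustment called 504 members higher and 351 lower, which together are 50.8% of the members, against 52.7% of all 23325 TCs tested (mean of 1 TPM or more). By direction, 30.0% of members were higher and 20.9% lower, where the background was 23.2% higher and 29.5% lower over all TCs tested. The nearest comparison is with the 7894 autosomal TCs of at least 5 TPM on 2L, 2R, 3L and 3R, of which 31.8% were higher and 22.5% lower. The members thus stood close to autosomal start sites of the same level. The median log2 fold change was 0.18 over members and 0.18 over those autosomal TCs, against 0.03 over all TCs tested. The groups did not overlap in TPM for 764 members (45.4%, background 48.2%).

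How many calls fell on each side depended on which TCs were fitted. Of the member calls, 58.9% were higher in this fit and 45.6% when only TCs of at least 5 TPM were fitted. Among the 1442 members whose mean reached 5 TPM in each group, 428 were higher and 228 lower (29.7% and 15.8%), against 32.1% higher and 16.9% lower of the autosomal TCs that reached this level in each group.

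The share of calls moved with width and level. Of the 261 members of 1 position, 65 were higher and 70 lower (24.9% and 26.8%, against 28.7% higher and 26.0% lower of autosomal start sites of 1 position). Of the 331 members over 50 bp, 109 were higher and 54 lower (32.9% and 16.3%, against 35.3% higher and 19.0% lower of autosomal ones). The SD of the log2 fold change over members was 1.59 for 1 position and 0.92 for over 50 bp. Among autosomal start sites of the same widths these SDs were 1.55 and 1.32. By level, 106 of the 408 members under 10 TPM were higher and 107 lower (26.0% and 26.2%), against 27.1% higher and 27.1% lower of autosomal start sites of that level. Of the 217 members over 100 TPM, 79 were higher and 38 lower (36.4% and 17.5%), against 38.1% higher and 19.6% lower of autosomal ones. The shares of members thus lay near those of autosomal start sites in each of these classes. The width classes also differ in how the same start site varies between libraries, as given above, and the part of that in the counts was not tested.

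**Figure D2:**
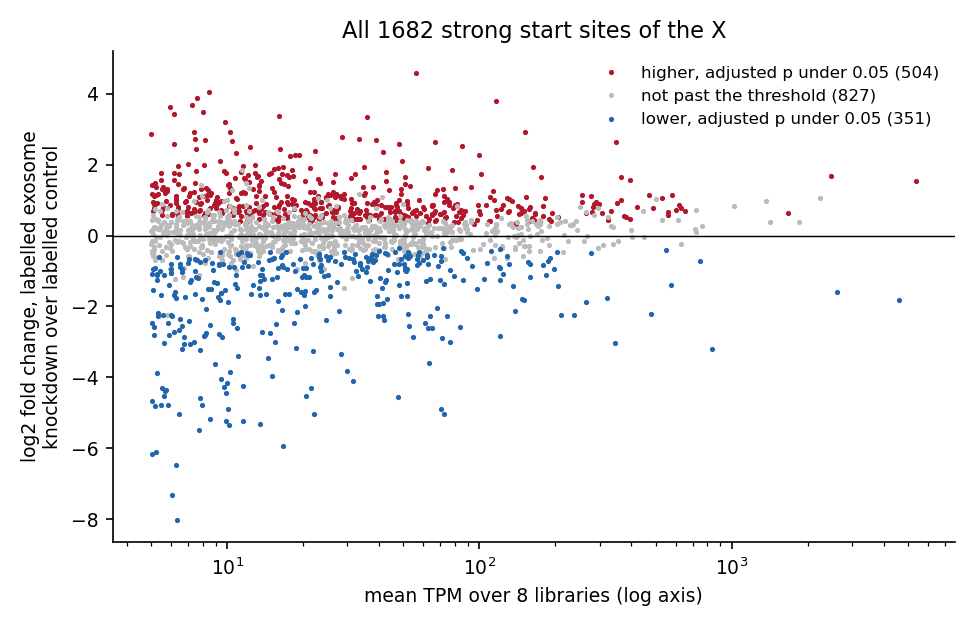
Log2 fold change of the libraries labelled exosome knockdown over those labelled control (edgeR) against mean TPM over the 8 libraries (log axis) for all 1682 members. Red points are the 504 members called higher, blue the 351 called lower and grey the 827 not called. The largest differences point downward and lie among members of low level.

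A difference of at least 4-fold was called for 149 members (8.86%, background 19.6% of all TCs tested and 11.0% of autosomal TCs of at least 5 TPM). Of these, 110 were lower (background 16.4%) and 39 higher (background 3.24%) in the libraries labelled exosome knockdown. This is 6.54% of members lower and 2.32% higher, against 7.89% lower and 3.13% higher over autosomal TCs of at least 5 TPM. The 110 lower members had a median of 10.1 TPM and a median length of 5 bp, and 31 of them were of 1 position. The 39 higher members had a median of 16.0 TPM and a median length of 5 bp. The 827 members not called had medians of 20.5 TPM and 21 bp. Of the 110, 82 reached the 5 TPM of the rule through the libraries labelled control alone, and of the 39, 21 did so through those labelled exosome knockdown alone, so such members had to differ. Of the 1442 members of at least 5 TPM in both groups, 28 were lower by 4-fold or more and 18 higher. The share among autosomal TCs of that level was not counted, so these counts have no background.

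The largest falls were start sites close to silent in the libraries labelled exosome knockdown. Each met the 5 TPM of the rule through the libraries labelled control alone. These sites had to differ, so their differences and p-values are a description. At 7474066 on the plus strand the libraries labelled exosome knockdown had 5, 0, 0 and 2 tags, which is 0.114, 0, 0 and 0.0547 TPM, against 12.7, 12.0, 20.5 and 5.30 TPM in those labelled control (log2 fold change -8.02 ± 0.73, edgeR Benjamini-Hochberg adjusted p = 1.58e-05). This value rests on 7 tags in the libraries labelled exosome knockdown and was -9.17 without library 1 of that label. The single base 11712973 on the plus strand had 0.0683, 0.0298, 0.130 and 0.0547 TPM in the libraries labelled exosome knockdown and 12.5, 11.7, 6.10 and 17.9 TPM in those labelled control (-7.32 ± 0.49, adjusted p = 4.78e-06). At these sites every library labelled control was above 5 TPM and no library labelled exosome knockdown reached 0.2 TPM. A further pair of sites lay 72 bp apart on the plus strand. The one at 1170972 averaged 0.138 ± 0.0934 TPM in the libraries labelled exosome knockdown and 12.4 ± 5.54 TPM in those labelled control (SD, n = 4 each), and the one at 1170900 averaged 0.527 ± 0.32 TPM with the label exosome knockdown and 32.9 ± 11.8 TPM with the label control. A minus-strand site 7.8 kb away, at 1178729, averaged 0.141 ± 0.103 TPM with the label exosome knockdown and 10.3 ± 6.05 TPM with the label control. At 16320619 on the minus strand the average was 0.129 ± 0.132 TPM with the label exosome knockdown and 9.96 ± 0.76 TPM with the label control. The log2 fold changes of these 4 were between -6.45 and -5.94, with edgeR Benjamini-Hochberg adjusted p of at most 3.64e-05, and that of 16320619 was -7.16 without library 1 labelled exosome knockdown.

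Some of the lower members lay close together. Chained at 10 kb, the 110 formed 77 stretches, of which 20 held 2 or more members and 53 members in all, and the 39 higher members formed 33, of which 4 held 2 or more members and 10 in all. Members lie close together on the whole, as given above, and whether the lower ones do so more than others was not tested. The fullest held 5 members between 8005752 and 8010236, on both strands. Its strongest difference was at 8010236 on the plus strand, with 0.866, 0.358, 0.390 and 0.984 TPM in the libraries labelled exosome knockdown and 27.1, 28.7, 26.5 and 22.9 TPM in those labelled control (log2 fold change -5.32 ± 0.33, edgeR Benjamini-Hochberg adjusted p = 3.87e-06). Its neighbour at 8010132, on the minus strand and pointing away from it, had 22.6, 20.9, 13.0 and 16.6 TPM in the libraries labelled exosome knockdown and 113, 93.9, 118 and 90.2 TPM in those labelled control (-2.47 ± 0.21, adjusted p = 1.04e-05). At 8005752 on the plus strand the libraries labelled exosome knockdown had 5.60, 4.47, 5.23 and 4.67 TPM and those labelled control 61.0, 53.8, 52.6 and 39.7 TPM (-3.35 ± 0.18, adjusted p = 2.85e-06). At each of these sites all 4 libraries labelled exosome knockdown were below all 4 labelled control. Those at 8010236 and 8005752 averaged under 5 TPM with the label exosome knockdown, so both had to differ.

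A second stretch held 4 minus-strand members between 16315187 and 16320619. The most used, at 16320536, had 6.45, 4.35, 1.79 and 5.36 TPM in the libraries labelled exosome knockdown and 168, 138, 122 and 116 TPM in those labelled control (log2 fold change -4.90 ± 0.36, edgeR Benjamini-Hochberg adjusted p = 6.60e-06). The site at 16320536 also averaged under 5 TPM with the label exosome knockdown, so it had to differ. These stretches, and the next 4 sites, were chosen after their values were seen.

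Some lower members were among the strongly used start sites. The single base 8354926 on the minus strand had 173, 156, 76.4 and 241 TPM in the libraries labelled exosome knockdown and 1398, 1343, 1381 and 1934 TPM in those labelled control (log2 fold change -3.21 ± 0.32, edgeR Benjamini-Hochberg adjusted p = 2.79e-05). At 19781387 on the plus strand the libraries labelled exosome knockdown had 89.6, 68.0, 42.3 and 96.5 TPM and those labelled control 615, 620, 676 and 544 TPM (-3.03 ± 0.25, adjusted p = 9.17e-06). At 7502466, also on the plus strand, the means were 167 ± 32.7 TPM with the label exosome knockdown and 790 ± 233 TPM with the label control (-2.22 ± 0.25, adjusted p = 5.14e-05). The single base 945561 on the plus strand was the most used of the members that were higher by 4-fold or more, with 717, 382, 666 and 629 TPM in the libraries labelled exosome knockdown and 79.1, 115, 56.8 and 134 TPM in those labelled control (2.63 ± 0.30, adjusted p = 5.53e-05).

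The 6 largest rises were at start sites that averaged at most 15.7 TPM in the libraries labelled control. All of them except 17989325 met the 5 TPM of the rule through the libraries labelled exosome knockdown alone. Those sites had to differ, so their differences and p-values are a description. At 18962924 on the minus strand the libraries labelled exosome knockdown had 151, 90.8, 42.5 and 144 TPM and those labelled control 3.80, 3.36, 0.129 and 10.8 TPM (log2 fold change 4.58 ± 0.92, edgeR Benjamini-Hochberg adjusted p = 0.0020). The single base 17989325 on the plus strand had 200, 171, 306 and 187 TPM in the libraries labelled exosome knockdown and 12.9, 17.3, 7.70 and 24.9 TPM in those labelled control (3.79 ± 0.37, adjusted p = 2.31e-05). The values labelled control spread widely at 18962924, and at 17989325 the groups lay far apart. The sites 17470115 and 17470088, 27 bp apart on the minus strand, averaged 14.2 ± 5.10 and 13.5 ± 4.98 TPM in the libraries labelled exosome knockdown, against 0.999 ± 0.511 and 1.06 ± 0.709 TPM in those labelled control. The single base 17320034 on the plus strand averaged 15.9 ± 8.08 TPM with the label exosome knockdown and 0.985 ± 1.21 TPM with the label control. The single base 15694430 on the minus strand averaged 10.9 ± 2.81 TPM with the label exosome knockdown and 0.909 ± 0.261 TPM with the label control (n = 4 each, SD). The log2 fold changes of the 6, which were chosen among members without overlap, lay between 3.62 and 4.58. Without control-labelled library 4 that of 18962924 was 5.46 and that of 17320034 was 5.38, and with the replicate number as a block that of 18962924 was 5.19.

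**Figure D3:**
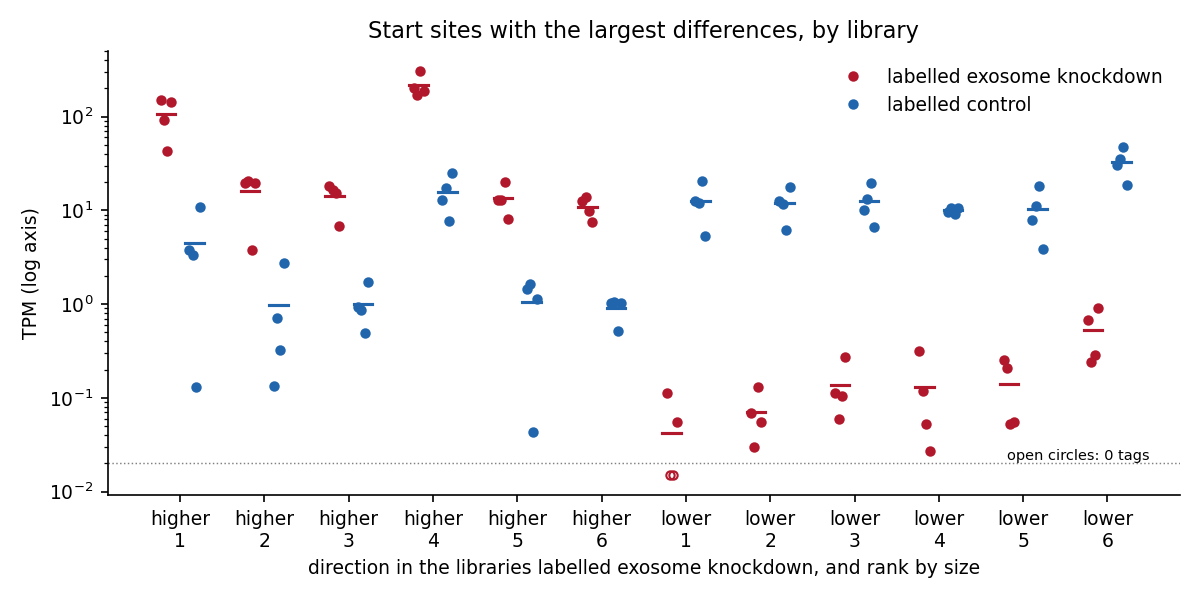
TPM (log axis) of the 6 members with the largest rise and the 6 with the largest fall among called members whose groups do not overlap, in order of size. Points are libraries, bars are means, red is labelled exosome knockdown and blue labelled control, and open circles stand for 0 tags. The 6 falls end under 1 TPM in the libraries labelled exosome knockdown. All of these sites but rise 4 reached a mean of 5 TPM in 1 group only, so they had to differ.

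The region upstream of a start site on the opposite strand was not used by the rule and shows whether a promoter also starts RNA the other way. A second TC of at least 5 TPM lay there, within 500 bp upstream on the opposite strand, at 472 members (28.1%), against 29.4% to 33.5% on the 4 autosome arms. Those TCs are strong start sites of their own, so the other 1210 members were also taken alone, a choice made after the data were seen. Summed over all members, the upstream antisense tags did not separate the groups: there were 277.2 ± 14.0 per 1000 member tags in the libraries labelled exosome knockdown and 282.7 ± 13.4 in those labelled control (SD over 4 libraries, two-sided exact permutation p = 0.6). Around autosomal TCs of at least 5 TPM the same sum was higher with the label exosome knockdown, at 354.7 ± 6.87, than with the label control, at 329.3 ± 1.91 (n = 4 each, exact permutation p = 0.029). Over the 1210 members without a strong opposite TC they were fewer with the label exosome knockdown, at 8.67, 7.22, 7.36 and 8.91 per 1000 member tags, than with the label control, at 13.2, 11.6, 14.0 and 14.5. The groups did not overlap, and the exact permutation test (two-sided, n = 4 each) gave p = 0.029, the smallest that 4 against 4 allows. Around autosomal TCs chosen the same way the shares were 7.28 ± 0.43 with the label exosome knockdown and 11.2 ± 0.95 with the label control (n = 4 each, exact permutation p = 0.029).

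Window by window the same direction was seen. Of the 1682 members, 1293 had at least 10 antisense tags in the 500 bp and were tested, and 389 had fewer. edgeR with Benjamini-Hochberg adjustment called 424 windows lower (32.8%, background 32.9% of 7619 windows) and 253 higher (background 21.8%) in the libraries labelled exosome knockdown. Either call was made at 51.4% of all windows without a strong opposite TC and at 51.8% of those around autosomal TCs. At members without a strong opposite TC, 319 of 821 windows were lower (38.9%, background 41.3%) and 75 higher (9.14%, background 10.1%), with a median log2 fold change of -0.90, against -0.87 around autosomal TCs. At members with one, 178 of 472 windows were higher (background 39.3%) and 105 lower (background 20.3%). The groups did not overlap at 361 of the 821 (background 47.1%). The members thus stood near the background in each class. Of the 319 lower windows, the member itself was not called at 136, was lower at 126 and was higher at 57. Over all 1682 members, 20.9% were called lower and 30.0% higher. The shares for the members of the 821 windows alone were not counted.

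The upstream antisense windows of the members with the largest falls and rises were also counted. Among the 110 members lower by at least 4-fold, 94 windows could be tested and 63 (67.0%) were lower, with a median log2 fold change of -2.52, against 32.8% and -0.25 over all members tested. Of the 110, the 28 members that reached 5 TPM in both groups had 23 tested windows, of which 13 were lower and 4 higher, with a median of -2.36, against 30.6% lower and -0.17 over all members of that level. Among the 39 members higher by at least 4-fold, 28 windows could be tested, of which 9 were higher and 3 lower, with a median of 0.25. Over all members, 253 of the 1293 tested windows were higher and 424 lower. The strands were counted separately, yet both come from the same 8 libraries, so this is a description.

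Individual windows showed how far the strands can part. At 10380659 on the minus strand, a single base with 17.7, 13.9, 17.3 and 28.9 TPM in the libraries labelled exosome knockdown and 14.8, 11.6, 9.92 and 19.3 TPM in those labelled control, the member itself was not called. Its window held no antisense tag in any library labelled exosome knockdown and 23, 11, 25 and 22 tags in those labelled control. Taking 3 tags over the group as the most that a count of 0 allows, the antisense level was at least 24.8-fold lower with the label exosome knockdown, a bound that, like those below, covers counting error only, since tags are not independent molecules. At 19135877 on the minus strand, where the member fell as well (0.374 ± 0.155 TPM with the label exosome knockdown, 9.68 ± 8.09 TPM with the label control), the counts were 0 in all 4 libraries labelled exosome knockdown and 12, 21, 73 and 18 with the label control, at least 38.0-fold lower. Control-labelled library 3 held 73 of these 124 tags. At 11714864 on the plus strand there were 0, 1, 1 and 0 tags with the label exosome knockdown and 179, 129, 237 and 157 with the label control, a ratio of 323 (95% exact interval 89.1 to 2673, counting error only). The member there fell as well, from 39.5 ± 14.4 TPM with the label control to 4.19 ± 2.87 TPM with the label exosome knockdown. Its log2 fold change was -3.24 ± 0.47 (edgeR, Benjamini-Hochberg adjusted p = 0.00025), so both strands were lower at this site.

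Rises in antisense RNA were fewer. The plus-strand member at 822177 had 26.3, 20.4, 27.6 and 24.2 TPM in the libraries labelled exosome knockdown and 29.6, 28.5, 23.1 and 21.7 TPM in those labelled control, and was not called. Its window held 470, 294, 261 and 260 antisense tags with the label exosome knockdown and 45, 32, 15 and 26 with the label control (log2 fold change 3.55 ± 0.34, edgeR Benjamini-Hochberg adjusted p = 2.84e-06). A minus-strand member at 821601, 576 bp away, points in the other direction. There the window held 5, 12, 7 and 11 tags with the label exosome knockdown and 0, 1, 2 and 0 with the label control, a ratio of 12.7 (95% exact interval 4.00 to 64.4, counting error only). At 10262087 on the plus strand, 4, 6, 2 and 6 tags stood against none in the 4 libraries labelled control, at least 6.52-fold higher.

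Around the 1210 members without a strong opposite TC, antisense signal had a local peak upstream and fell off from it towards the summit. This peak was not the highest point, as the signal was more frequent further from the summit on both sides. Strong opposite TCs were left out only within 500 bp upstream, so those further upstream or downstream count towards that signal. Their part in it was not tested. In steps of 50 bp, the share of members with at least 0.05 TPM on the opposite strand was 17.8% with the label exosome knockdown and 24.2% with the label control in the step between 100 and 150 bp upstream (means of 4 libraries). In the 50 bp next to the summit upstream it was 11.1% with the label exosome knockdown and 18.7% with the label control. The groups did not overlap in 24 of the 30 steps, downstream ones included, so the lower share with the label exosome knockdown was not limited to the upstream side. The libraries labelled control also had a larger share of X tags outside the members, as given above, and its part in this difference was not tested.

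**Figure D4:**
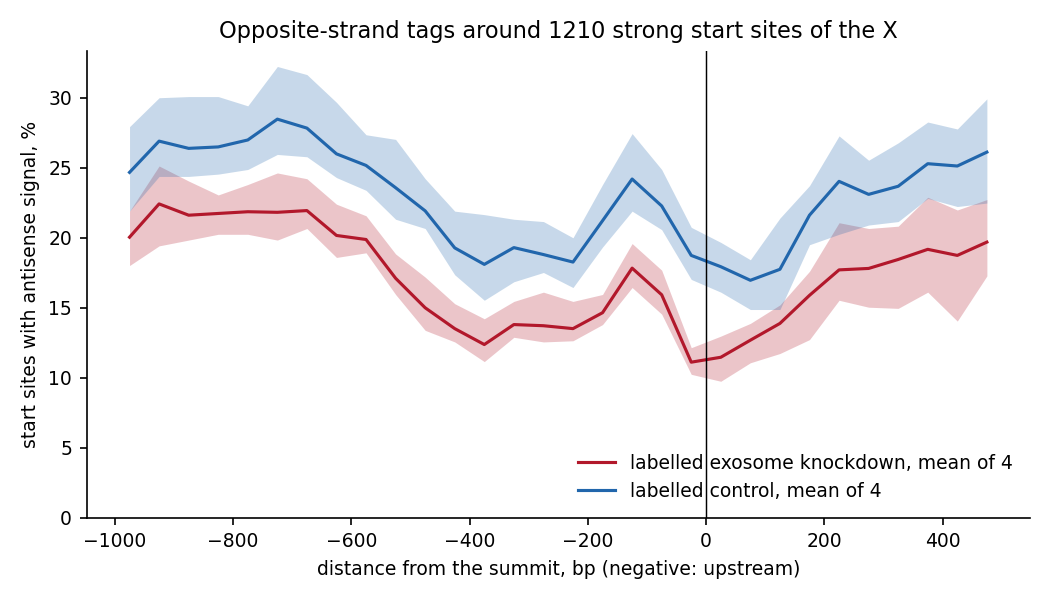
Share of the 1210 members without a strong opposite TC that had at least 0.05 TPM of opposite-strand tags, in steps of 50 bp by distance from the summit (negative is upstream). Lines are means and bands the range of the 4 libraries labelled exosome knockdown (red) and the 4 labelled control (blue). Both lines have a local peak between 100 and 150 bp upstream, at 17.8% (red) and 24.2% (blue). Both rise above these values further upstream, and downstream at the edge of the plot. Strong opposite TCs were left out only within 500 bp upstream and count elsewhere.

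The groups overlapped in measures of shape. The median span of the central 80% of tags was 17 bp in all 4 libraries labelled exosome knockdown and 16, 16, 17 and 17 bp in those labelled control (exact permutation test, two-sided, n = 4 each, p = 0.429). The median share of tags at the summit was 41.1 ± 0.74% with the label exosome knockdown and 41.0 ± 0.37% with the label control (n = 4 each, exact permutation p = 0.829). Sense tags more than 100 and up to 1000 bp downstream and outside member TCs came to 61.9 ± 4.67 per 1000 member tags with the label exosome knockdown and 68.7 ± 5.64 with the label control (n = 4 each, exact permutation p = 0.143).

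Most members kept their top position. It was the same base in all 8 libraries at 1070 of 1660 members (64.5%), and at 815 of the 1405 that were longer than 1 position. At 16 members (0.964%) all 4 libraries of a group shared 1 top position and the other group had another. Among autosomal TCs of at least 5 TPM, 0.644% did so. The shift was at most 40 bp with a median of 3.5 bp, and at 11 of the 16 the top position lay upstream in the libraries labelled exosome knockdown, including all 8 with a shift of 4 bp or more. The top positions chose these 16, so the shares that follow are a description.

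Among members with a shift of 10 bp or more, the clearest case lay at 17530358 on the plus strand, a start site of 41.8 TPM. In the libraries labelled exosome knockdown 40.5%, 42.5%, 35.7% and 38.4% of its tags started at 17530335, 23 bp upstream of 17530358, against 14.9%, 13.1%, 14.9% and 24.5% in those labelled control. At 17530358 itself the mean shares were 18.5 ± 2.58% with the label exosome knockdown and 30.8 ± 1.67% with the label control (SD, n = 4 each). At 19587829 on the plus strand, the base 4 bp upstream took 41.7 ± 1.88% with the label exosome knockdown and 17.1 ± 3.49% with the label control. The largest shift, 40 bp at 13724322 on the minus strand, was smaller in share: the upstream base took 20.5 ± 2.81% with the label exosome knockdown and 14.9 ± 0.94% with the label control. Among the most used members, rank 4 at 5794904 had its top position 3 bp further downstream with the label exosome knockdown, where that base held 46.7 ± 2.02% of tags, against 41.2 ± 1.47% with the label control.

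**Figure D5:**
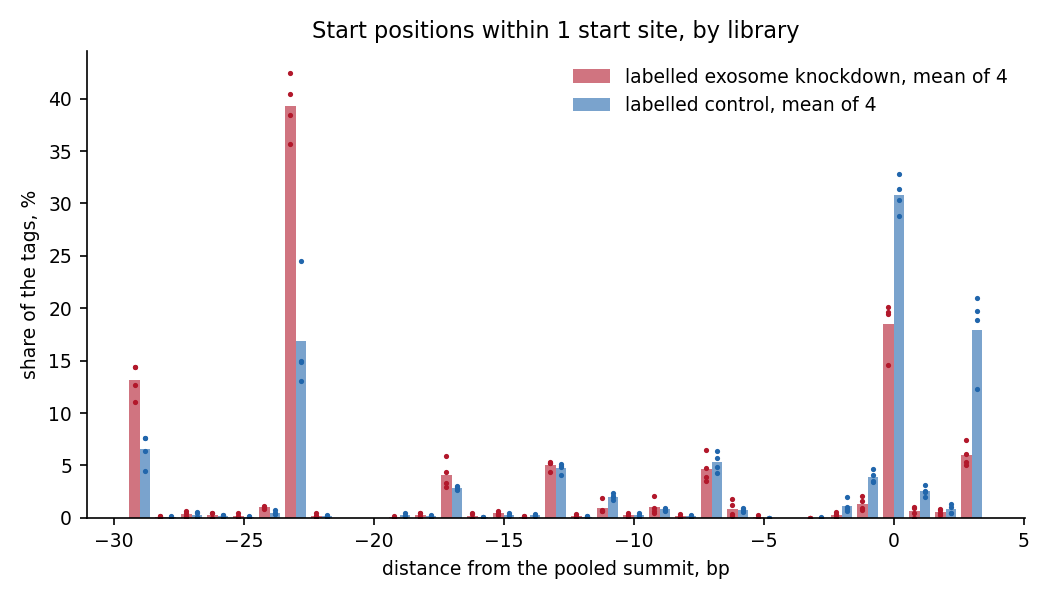
Share of tags (%) starting at each base of the start site at 17530358, by distance from its pooled summit in bp. Bars are means and points the 4 libraries labelled exosome knockdown (red, left) and the 4 labelled control (blue, right). The base 23 bp upstream leads with the label exosome knockdown and the summit with the label control.

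Set against the autosome arms, the X had start sites at a similar density but a lower level. There were 76.8 strong start sites per Mb on the X, against 73.6 to 92.5 on the 4 arms. The median level was 21.6 TPM on the X and 23.6 to 24.6 TPM on the arms. Start sites of 100 TPM or more made up 12.9% on the X and 16.0% to 17.1% on the arms, and the summed level per Mb was 5103 TPM on the X and 5336 to 8638 TPM on the arms. The X had the lowest median in each of the 8 libraries, at 0.905 to 0.964 of the lowest arm. The level chose both sets, the copy number of the X in these cells was not measured, and with 1 X and 4 arms no test was made.

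The ratio of member tags to the tags of autosomal start sites of at least 5 TPM overlapped between the groups. With start sites above 1000 TPM left out, it was 0.181, 0.180, 0.176 and 0.182 in the libraries labelled exosome knockdown and 0.179, 0.180, 0.180 and 0.184 in those labelled control (4 libraries each, two-sided exact permutation p = 0.657). With every start site kept, the means were 0.177 ± 0.0024 with the label exosome knockdown and 0.169 ± 0.0048 with the label control, without overlap (n = 4 each, exact permutation p = 0.029). Keeping or leaving out the sites above 1000 TPM, 10 of them on the X, thus changed the call. Whether the change in the upstream antisense share differed between X and autosomes was tested directly. The log2 ratio of the share on the X to that on the autosomes was -0.36 ± 0.073 with the label exosome knockdown and -0.22 ± 0.073 with the label control (4 libraries each, two-sided exact permutation p = 0.0571), which does not pass 0.05.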

How the data were processed

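The values deposited by the authors are counts: the number of CAGE tags whose 5′ end falls on a given base and strand (dm3), without normalization. They were made from reads of 8 libraries that were trimmed, filtered (Q30 in 50% of bases) and mapped uniquely with Bowtie 1.1.1 (at most 2 mismatches). No duplicate removal is stated, so tags are not independent molecules.

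Counts per TC were divided by library totals (33565925 to 46388382 tags) for TPM. The 23325 TCs averaging 1 TPM or more, and separately the antisense windows of 500 bp with 10 or more tags, entered the quasi-likelihood test of edgeR 4.0.16 (TMM factors 0.901 to 1.05, R 4.3.3, limma 3.58.1), with DESeq2 1.42.0 as an alternative and Benjamini-Hochberg adjustment at 0.05. Fold changes are those of the libraries labelled exosome knockdown over those labelled control. Single values per library were compared by exact permutation tests, two-sided with the smaller tail doubled. The edgeR test was tried on simulated counts, and the permutation test was checked on a fixed set of values with a known answer. Scripts ran under Python 3.11.15 with pandas 2.3.3, numpy 2.4.6, matplotlib 3.10.9 and scipy 1.17.1.

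Named members are the 8 of highest mean TPM, the 6 largest rises and 6 largest falls among called members without overlap, the 3 largest antisense changes each way, the 2 widest, the 2 narrowest (which are ranks 1 and 2) and the 2 on each side of the threshold. Members and lists were chosen with earlier results of these data known. Alternatives covered normalization, filters, the test, window size, the replicate block and leaving out each library. No dm3 sequence or annotation was used here, so no gene is named and no sequence given.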

Additional observations from a re-analysis of the deposited data

Results flagged for a closer look

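In 7 groups of 4 libraries, a single library lay apart from the other 3 by Dixon's criterion, which chance meets in about 1 of 20 groups; 5 of these were among the 56 groups checked for single members. The ratio of X to autosomal tags was 0.184 in control-labelled library 4, and the median summit share was 40.5% there. At 17042292, library 2 labelled exosome knockdown had 5050 TPM. At 18669268, library 4 labelled exosome knockdown had 1513 TPM, and at 17320034, library 3 labelled exosome knockdown had 3.80 TPM. At 15694430, control-labelled library 3 had 0.517 TPM. At 15600786, the widest member, library 4 labelled exosome knockdown had 6.80 TPM.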

How the results depend on the processing

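Counts of called members and windows stayed within 1.5 times under the other normalizations, DESeq2 and the filters, except that 150 upstream windows were higher when only 200 bp were counted, against 253. Restricting to members of at least 5 TPM in both groups, chosen after seeing the data, left 228 lower. Without each library in turn, 391 to 491 members were higher and 305 to 357 lower, and 213 to 257 windows were higher and 386 to 413 lower. Windows without a strong opposite TC gave 57 to 87 higher and 294 to 320 lower.

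The difference in the antisense share (label exosome knockdown minus label control, per 1000 tags) was -16.4 as a median over members and -5.28 without members with a strong opposite TC (exact permutation p = 0.029 for both, n = 4 each). Summed over all members, the main setting, the difference was -5.48 (exact permutation p = 0.6, n = 4 each). With each library left out, this main value ranged between -10.1 and 0.99. It turned positive without library 2 labelled exosome knockdown and without library 3 labelled control. For the downstream sense share the difference ranged between -9.51 and -4.95 with each library left out. Signs also turned for the X to autosome ratio (0.00869 with all TCs kept, 0.013 as a difference of median log2 levels, -0.00142 to 0.000404 with a library left out), the summit share (-0.39 percentage points at 20 TPM or more, -0.116 to 0.379 with a library left out) and the median width (-0.25 bp for the central 50% of tags, 0.333 to 0.667 bp with a library left out). The causes were not tested.

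Of 391 values of single members under alternatives, 374 kept their direction and their side of the threshold, 12 lost and 5 gained the call, and 0 reversed. Same-numbered libraries correlated at 0.0987 to 0.444, and each library labelled exosome knockdown correlated best with its own number. The libraries may thus be paired by number. The methods state no pairing, so the main fit had no block and the permutation tests took the libraries as unpaired. With a replicate block, 514 members were higher and 388 lower, 816 calls were shared, and 266 windows were higher and 435 lower (85 and 328 without a strong opposite TC).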
